A study of Mus musculus with 2 samples.

Results

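The urothelial transcription factors described here are 10 genes, Trp63, Grhl2, Grhl3, Pparg, Foxa1, Gata3, Elf3, Klf5, Ehf and Ovol1, selected by gene name among 30011 genes on the array. All array probes that carry one of these names were taken, which gave 15 probes, and the brightest probe of each gene over all 4 channels served as its main probe. The samples were ureters of newborn wildtype NMRI mice (postnatal day 0), explanted and cultured for 18 h. Treated explants received 10 µM of cyclopamine, an inhibitor of the SHH signal transducer SMO, and control explants received the solvent DMF at 1 in 1000. Each of the 2 two-colour arrays set a pool of cyclopamine-treated ureters against a pool of control ureters of the same sex, with female pools on replicate 1 and male pools on replicate 2 and the dyes exchanged between the arrays, so that sex, dye orientation and replicate cannot be told apart. Each value below therefore rests on 2 pools per condition, in which single animals were not resolved.

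The urothelium is the layered lining of the ureter, with basal cells next to the mesenchyme, intermediate cells, and superficial cells that face the lumen and carry uroplakin plaques. It is the source of the SHH ligand, whose receptor PTCH1 and effectors GLI act in the mesenchyme beneath it. As urothelial factors these genes are placed in the sending tissue. Some of them, such as Pparg and Gata3, are also expressed by other cells, and whole ureters do not resolve the source. TP63 maintains basal cells of stratified epithelia. GRHL2, GRHL3 and OVOL1 keep epithelial cells epithelial and act on junction and barrier genes. PPARG, FOXA1 and GATA3 direct urothelial differentiation, and KLF5, ELF3 and EHF act with them in maturing epithelia.

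The probes that carry the results are shown first, because the readings for Trp63 and Grhl2 come from more than 1 place in the gene, as do those for Ehf. Each probe is 60 bases long. Positions are those of the array annotation on build mm9, which does not say whether they are exonic, intronic or in a UTR. Probes on RefSeq transcripts that have at least 1 frame without a stop codon and lie before the last probe of their gene, and the Klf5 probe, which spans a junction, are printed whole in the sense orientation. Of the last probe of each gene and of the cDNA clone probes the first 30 bases are given. Capitals mark a run of 7 GCA triplets.

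Trp63, chr16:25821344-25821403, cDNA clone: acttaccatgtgtcctggctatagcttttc
Trp63, chr16:25867718-25867777, cDNA clone: cagtcccatataccatgcacttaactcttt
Trp63, chr16:25871159-25871218, RefSeq transcript: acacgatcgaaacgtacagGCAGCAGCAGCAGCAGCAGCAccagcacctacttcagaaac
Trp63, chr16:25892012-25892071, RefSeq transcript, main probe: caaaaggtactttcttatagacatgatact
Grhl2, chr15:37239426-37239485: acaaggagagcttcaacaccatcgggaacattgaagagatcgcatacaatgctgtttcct
Grhl2, chr15:37293139-37293198, main probe: ccctttctgaaggacaagcaggggagactc
Ehf, chr2:103114043-103114102: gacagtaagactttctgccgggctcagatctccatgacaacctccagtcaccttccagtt
Ehf, chr2:103106827-103106886, main probe: ggattctgatcaatgaagaaccggacgtaa
Klf5, chr14:99702656-99712388: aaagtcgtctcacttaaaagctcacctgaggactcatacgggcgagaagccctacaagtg

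The Trp63 and Grhl2 probes lie on the plus strand and the Ehf probes on the minus strand. The Klf5 probe, also on the plus strand, spreads its 60 bases over 9733 bases of genome and so crosses an exon junction. The other main probes each occupy 60 contiguous bases. They lie on chromosome 1 for Elf3, 2 for Gata3 and Ehf, 4 for Grhl3, 6 for Pparg, 12 for Foxa1 and 19 for Ovol1. Ehf has a further probe 7.22 kb from its main probe, the 2 Grhl2 probes lie 53.7 kb apart, and the other 7 genes outside Trp63, Grhl2 and Ehf have a single probe each.

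All 10 factors were read higher with cyclopamine on both arrays, by amounts that stayed below the threshold of the test for each of them. By comparison, 28.6% of the 19398 genes tested were higher on both arrays and 29% were lower on both. The mean log2 ratio of cyclopamine over control ran from 0.21 for Klf5 to 0.66 for Grhl2, that is from 1.16-fold to 1.58-fold. The median over the 10 genes was 0.35 on replicate 1, 0.24 on replicate 2 and 0.30 for the mean of the arrays. Over all genes tested the median was -0.0030, -0.00063 and -0.0058. Every member lay at or above the 79.3 percentile of the genes tested by mean log2 ratio. Genes expressed in 1 epithelium share their cells, so the 10 signs are not 10 independent readings.

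None of the 10 passed limma at an adjusted p under 0.05, a limit that 0.438% of the genes tested passed as higher, and their adjusted p-values by limma ran from 0.196 to 0.812. At an unadjusted p under 0.05 by limma, 3 members (Grhl2, Ovol1 and Trp63) were higher, against 4.22% of the genes tested. The filter of the study asks for a control intensity over 100 and for a change of 1.5-fold or more that has 1 sign on each array. None of the members passed it, against 0.212% as higher and 0.637% as lower of the 13660 genes above that intensity on both arrays. The spots of a probe agreed closely within an array, with an SD of the log2 ratio of 0.0092 to 0.14 over up to 4 spots for the main probes, whereas the limma standard error, which rests on the spread between the arrays over all probes, was 0.23 for every member.

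**Figure D1:**
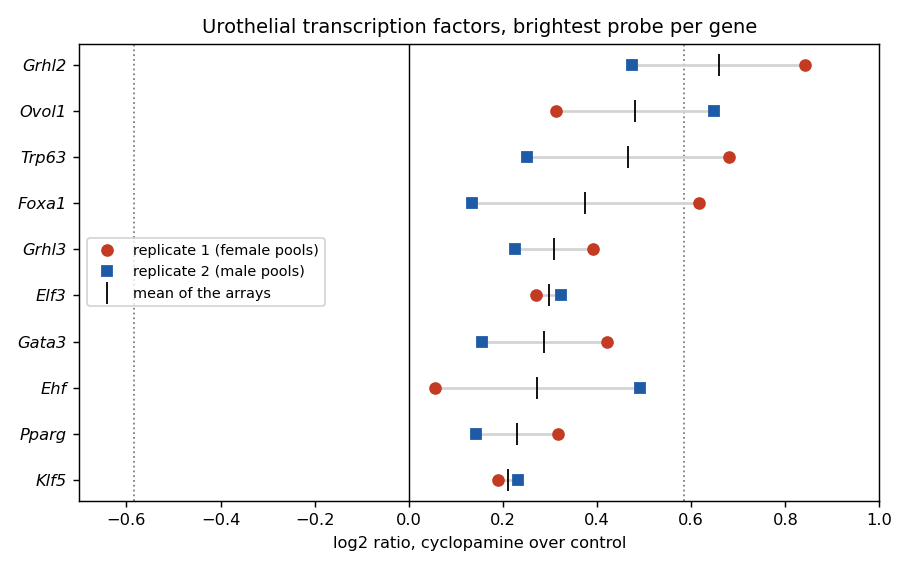
The horizontal axis is the log2 ratio of cyclopamine over control for the brightest probe of each gene, on replicate 1 (female pools, circles) and replicate 2 (male pools, squares), with the mean as a vertical tick and dotted lines at 1.5-fold. All points lie to the right of 0, and no gene has both of its points past 1.5-fold.

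The hedgehog response itself was read on the same arrays as a check of the treatment. Gli1, the effector whose transcription reports hedgehog activity, had log2 ratios of -1.83 and -2.09 on replicates 1 and 2, with a mean of -1.96 ± 0.18 (SD, n = 2; limma adjusted p 1.76e-08). Ptch1, the receptor that hedgehog signaling induces, had a mean of -1.31 ± 0.25 (SD, n = 2; limma adjusted p 0.000248). Foxl1 fell by limma, at -2.61 ± 0.50 (SD, n = 2). Foxf1 had log2 ratios of -0.68 and -1.27 (limma adjusted p 0.0127) and Hhip, the hedgehog-binding inhibitor, of -0.31 and -1.99 (mean -1.15 ± 1.19, SD, n = 2; limma adjusted p 0.00683), with -1.66 as the mean of its other probe. The calls of Foxf1 and Hhip were lost with normexp at offset 50 (limma adjusted p 0.0714 and 0.157). Of the genes tested 0.866% were called lower by limma.

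Grhl2, the grainyhead factor that activates E-cadherin and claudin genes in epithelia, had the highest mean of the 10 genes. Its main probe read 3763 in control and 6745 in cyclopamine-treated ureters on replicate 1, and 1117 and 1552 on replicate 2. The log2 ratios were 0.84 and 0.47, with a mean of 0.66 ± 0.26 (SD, n = 2; limma adjusted p 0.196). Both arrays were higher, and the reading on replicate 2 missed 1.5-fold. The probe inside the gene was dimmer, at 270 in control and 537 with cyclopamine on replicate 1, and 111 and 153 on replicate 2. Its log2 ratios of 0.99 and 0.47 gave a mean of 0.73 ± 0.37 (SD, n = 2; limma adjusted p 0.120), so that both places in the gene read the same direction and a similar size. By the mean log2 ratio alone Grhl2 was the 1 member past 1.5-fold.

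Grhl3, the paralogue that drives terminal differentiation of superficial cells, read 14639 and 19207 in control and cyclopamine on replicate 1, and 3292 and 3851 on replicate 2. Its mean log2 ratio was 0.31 ± 0.12 (SD, n = 2; limma adjusted p 0.704), from 0.39 and 0.23. Ovol1, a zinc finger repressor of mesenchymal genes, was dim, at 125 and 155 on replicate 1 and at 22.7 and 35.5 on replicate 2. Its probe was well above background in all 4 channels, but the control reading on replicate 2 kept it below the intensity limit of 100, the only member for which this was so. Ovol1 had log2 ratios of 0.31 and 0.65 and a mean of 0.48 ± 0.24 (SD, n = 2; limma adjusted p 0.493), and the mean was 0.28 with normexp at offset 50. The log2 ratio of Grhl3 was larger in the female than in the male pools, and that of Ovol1 the other way round.

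Trp63 gave a different reading at each of its 4 probes. The main probe, farthest along the gene, read 8627 in control and 13817 in cyclopamine on replicate 1, and 2605 and 3101 on replicate 2. Its log2 ratios were 0.68 and 0.25, with a mean of 0.47 ± 0.30 (SD, n = 2; limma adjusted p 0.520). The probe with the GCA run had log2 ratios of 0.32 and 0.047, and the dim cDNA clone probe just upstream had 0.023 and 0.24. The first probe, on the other cDNA clone and 70.7 kb before the main probe, read 689 in control and 361 in cyclopamine on replicate 1, and 133 and 126 on replicate 2. Its log2 ratios of -0.93 and -0.071 (mean -0.50 ± 0.61, SD, n = 2; limma adjusted p 0.474) made it the single member probe of the 15 that was lower, whereas the other 14 were higher on both arrays. With the mean of all 4 probes in place of the brightest the log2 ratio of Trp63 was 0.069. The reading for Trp63 thus depends on the probe.

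**Figure D2:**
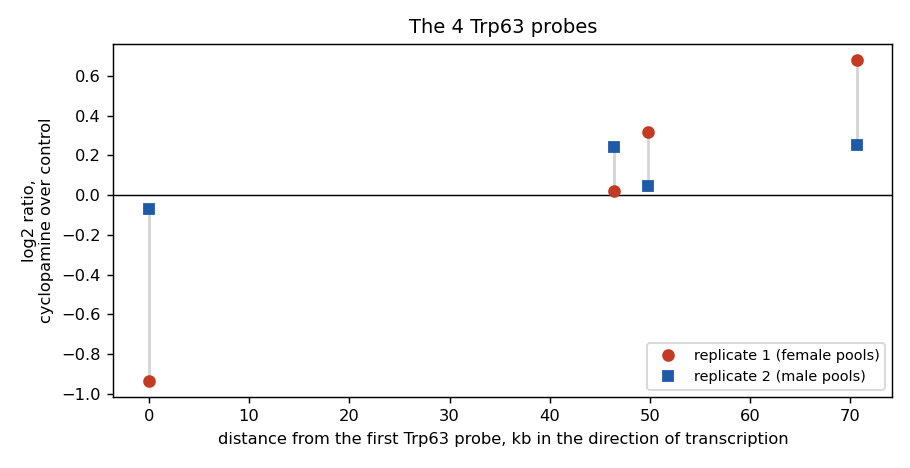
The horizontal axis is the distance in kb from the first Trp63 probe in the direction of transcription, and the vertical axis the log2 ratio of cyclopamine over control on replicate 1 (circles) and replicate 2 (squares). The first probe lies below 0 on both arrays, at -0.93 and -0.071, and the probe at 70.7 kb above 0 at 0.68 and 0.25.

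Foxa1, the forkhead pioneer factor that opens chromatin at urothelial enhancers, was bright on both arrays. It read 28331 in control and 43407 in cyclopamine on replicate 1, and 9492 and 10411 on replicate 2. The log2 ratios of 0.62 and 0.13 gave a mean of 0.37 ± 0.34 (SD, n = 2; limma adjusted p 0.644), and the difference between the arrays was larger than the mean itself. Gata3, the zinc finger factor of luminal epithelia, read 16866 and 22576 on replicate 1 and 4491 and 4999 on replicate 2. Its log2 ratios were 0.42 and 0.15, with a mean of 0.29 ± 0.19 (SD, n = 2; limma adjusted p 0.729).

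Pparg, the nuclear receptor that pairs with RXRA and switches on uroplakin genes, read 17525 in control and 21829 in cyclopamine on replicate 1, and 3506 and 3870 on replicate 2. The log2 ratios were 0.32 and 0.14, with a mean of 0.23 ± 0.12 (SD, n = 2; limma adjusted p 0.788). The log2 ratios of Foxa1, Gata3 and Pparg were all larger in the female than in the male pools.

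Elf3 and Ehf are related ETS factors of epithelia, and Klf5 is a zinc finger factor of proliferating and differentiating epithelia. Elf3 read 8556 and 10324 on replicate 1 and 1890 and 2365 on replicate 2, in control and cyclopamine. Its log2 ratios of 0.27 and 0.32 were nearly equal, with a mean of 0.30 ± 0.037 (SD, n = 2; limma adjusted p 0.718). Klf5 read 19612 and 22367 on replicate 1 and 4192 and 4921 on replicate 2. Its log2 ratios were also close, at 0.19 and 0.23, with a mean of 0.21 ± 0.029 (SD, n = 2; limma adjusted p 0.812). Ehf showed the widest contrast among these, with 2772 and 2879 on replicate 1 but 604 and 848 on replicate 2. Its log2 ratios were 0.055 and 0.49, with a mean of 0.27 ± 0.31 (SD, n = 2; limma adjusted p 0.743), and its further probe repeated them at 0.064 and 0.46. The Ehf difference between the arrays was thus read by both of its probes. Of the 10 genes, 6 had the larger ratio on replicate 1 and 4 (Elf3, Klf5, Ehf and Ovol1) on replicate 2.

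**Figure D3:**
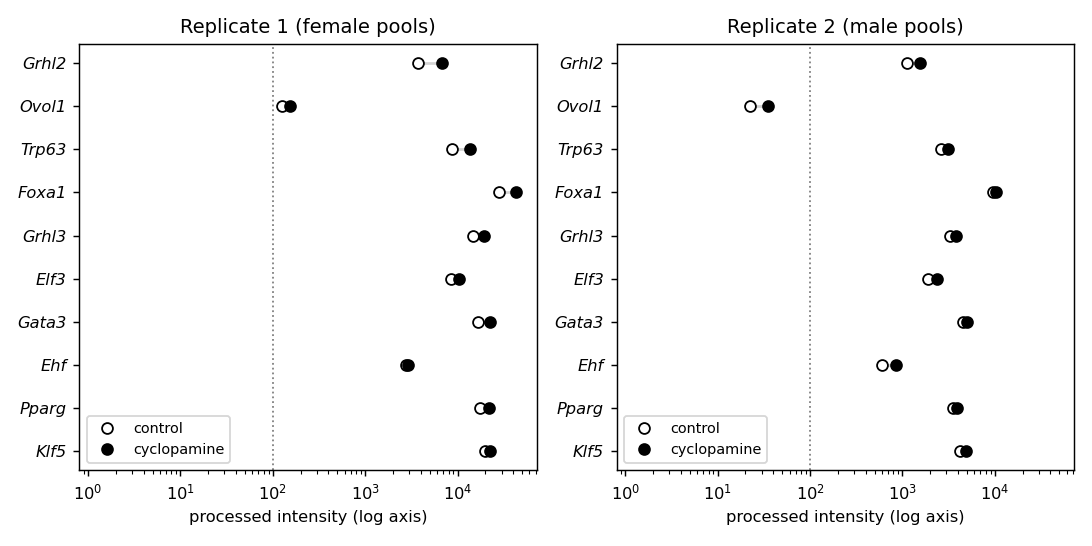
The horizontal axes give the processed intensity on a log scale for control (open) and cyclopamine (filled) on each array, for the brightest probe of each gene, with a dotted line at the intensity limit of 100. The filled point lies to the right of the open point for each gene on each array, and Ovol1 alone lies below the limit on replicate 2. Intensities are not on a common scale between the arrays, nor between probes.

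On replicate 1 longer genes tended to have higher ratios, a trend that bears on the longest members. Over 22468 tested probes whose gene has a length in the RefSeq table, which are not independent replicates, Spearman's rho of log2 ratio with gene length was 0.44 on replicate 1 and 0.035 on replicate 2. Trp63 spans 208326 bases, Grhl2 130749 and Pparg 129526, whereas Elf3 spans 4899 and Foxa1 7402. With the length trend taken out of each array, the replicate 1 log2 ratio was 0.36 for Trp63, 0.54 for Grhl2 and 0.014 for Pparg. It was 0.79 for Foxa1 and 0.49 for Elf3, both above their measured values. For Ehf (39845 bases) it was -0.10, so that 9 of 10 members were higher on both arrays, against 27.9% of the 16017 genes tested with a length. The median over the 10 members was then 0.34 on replicate 1 and 0.25 on replicate 2, and the mean log2 ratio was 0.077 for Pparg and 0.17 for Ehf. The source of the length trend was not tested.

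**Figure D4:**
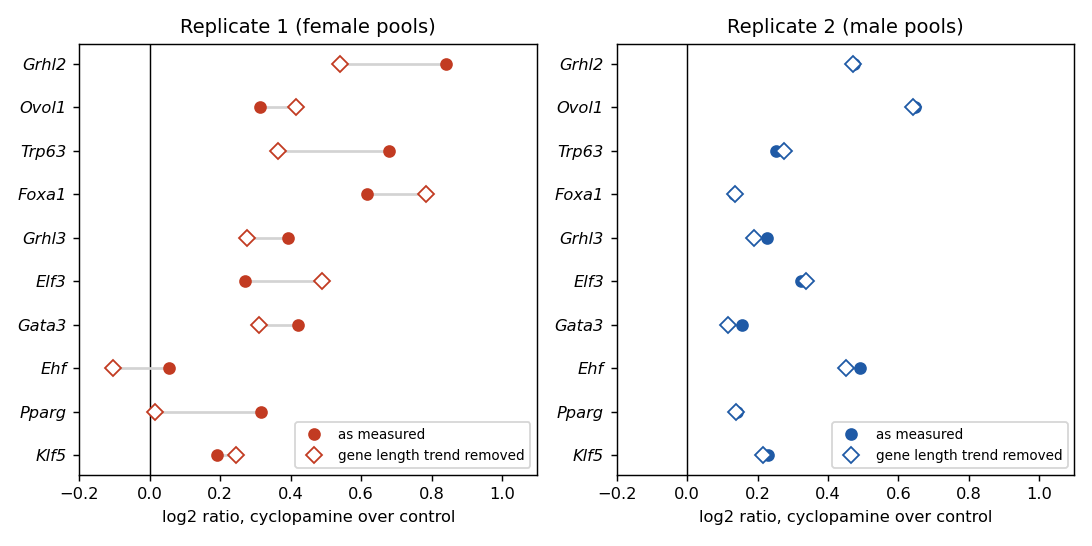
The horizontal axes give the log2 ratio of cyclopamine over control for each gene as measured (filled) and after the gene length trend was removed (open diamonds), on each array. On replicate 1 Trp63, Grhl2 and Pparg move towards 0 and Foxa1 and Elf3 away from it, Ehf falls to -0.10, and on replicate 2 the points hardly move.

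The relatives of the 10 factors in the same families were measured alongside them. Of 23 such genes 19 were tested, of which 8 were higher on both arrays, 4 lower on both and 7 opposite, and none passed limma or the filter of the study. Their median was 0.17 (replicate 1) and 0.0025 (replicate 2). Over all genes tested, 28.6% were higher on both arrays and 29% lower on both, which is the comparison for each later list too. Elf5, an ETS factor of glandular epithelia, had the highest mean log2 ratio of this list at 0.61 ± 0.45 (SD, n = 2; limma adjusted p 0.269), from 0.29 and 0.93. It was dim, with a control intensity of 16.8 on replicate 2, and its mean was 0.35 with normexp at offset 50. Klf4, a barrier factor of differentiated epithelia, had the lowest at -0.40 ± 0.27 (SD, n = 2; limma adjusted p 0.620), opposite in sign to Klf5. Grhl1, the other grainyhead paralogue, named after its values were seen, had log2 ratios of 0.43 and 0.30. The difference between the members and their relatives was not tested.

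Among 12 other transcription factors of epithelia, 10 were higher on both arrays and none was lower on both, with a list median of 0.22 on replicate 1 and 0.31 on replicate 2. None passed limma or the filter of the study. Foxq1, a forkhead gene, had the highest mean at 0.52 ± 0.18 (SD, n = 2; limma adjusted p 0.403). Tfap2b, an AP-2 factor, had the lowest, with log2 ratios of 0.44 and -0.80 that opposed each other. It was dim, at 58.8 in control on replicate 1 and 21.2 on replicate 2, and its mean was -0.051 with normexp at offset 50. Of 9 partners and regulators of the members, 5 were higher on both arrays and the other 4 opposite, none passed either limit, and the median of the list was 0.54 (replicate 1) and 0.083 (replicate 2). Zfpm2 and Zfpm1, the FOG cofactors of GATA factors, had the highest and the lowest mean of that list, at 0.46 and 0.082, and both had log2 ratios of opposite sign on the arrays.

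Known target genes of the members gave a mixed picture. Of 10 TP63 targets 8 were higher on both arrays and none was lower on both, with a list median of 0.37 on replicate 1 and 0.11 on replicate 2. Col17a1, the hemidesmosome collagen of basal cells, had the highest mean at 0.61 ± 0.10 (SD, n = 2; limma adjusted p 0.253), and Krt14, a basal keratin, the lowest, with log2 ratios of -0.52 and 0.19. Of 10 GRHL and OVOL targets 7 were higher on both arrays and none lower on both, with a list median of 0.22 and 0.18. Among the 7 were Zeb1 (0.31 and 0.092) and Zeb2 (0.54 and 0.016), mesenchymal genes that GRHL and OVOL factors repress. The count therefore mixes activated and repressed targets. Spint1, a membrane protease inhibitor of epithelia, had the highest mean at 0.48 ± 0.36 (SD, n = 2; limma adjusted p 0.498), and Rab25, an epithelial trafficking GTPase, the lowest, with log2 ratios of -0.31 and 0.22. None of the genes of either list passed limma or the filter of the study.

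Of 12 uroplakin and superficial genes 7 were higher on both arrays and none lower on both. The 12 genes had a median of 0.032 (replicate 1) and 0.12 (replicate 2). Among the 7 were Krt8, Krt18, Krt19 and Krt7, keratins that also serve as markers of all urothelial layers. The list also holds 6 superficial markers, namely Upk1a, Upk1b, Upk2, Upk3a, Upk3b and Krt20. Of these 6 only 2 (Upk1b and Upk3a) were higher on both arrays, and the median of their 6 mean log2 ratios was -0.014. Upk1b, a uroplakin tetraspanin, had the highest mean at 0.27 ± 0.038 (SD, n = 2; limma adjusted p 0.740), and Krt20, a keratin of superficial cells, the lowest at -0.10 ± 0.14 (SD, n = 2; limma adjusted p 0.926). Neither these nor the other genes of the list passed limma or the filter of the study. Of 10 general PPARG targets 3 were higher on both arrays, 3 lower on both and 4 opposite. These shares were near those of all genes tested, 28.6% higher on both and 29% lower on both. The median of the PPARG targets was 0.079 (replicate 1) and -0.056 (replicate 2). Cidec, a lipid droplet protein, was the 1 gene of this list that limma called, at -1.25 ± 1.12 (SD, n = 2; limma adjusted p 0.00215), with log2 ratios of -0.46 and -2.04. On replicate 2 it read 7.56 in control and 1.83 in cyclopamine and was not well above background with cyclopamine, so that the ratio there rests on a reading at the background. That call was lost with the normexp background correction (log2 ratio -0.29 at offset 50 and -0.45 at offset 10) and with the authors' series table (-0.37).

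**Figure D5:**
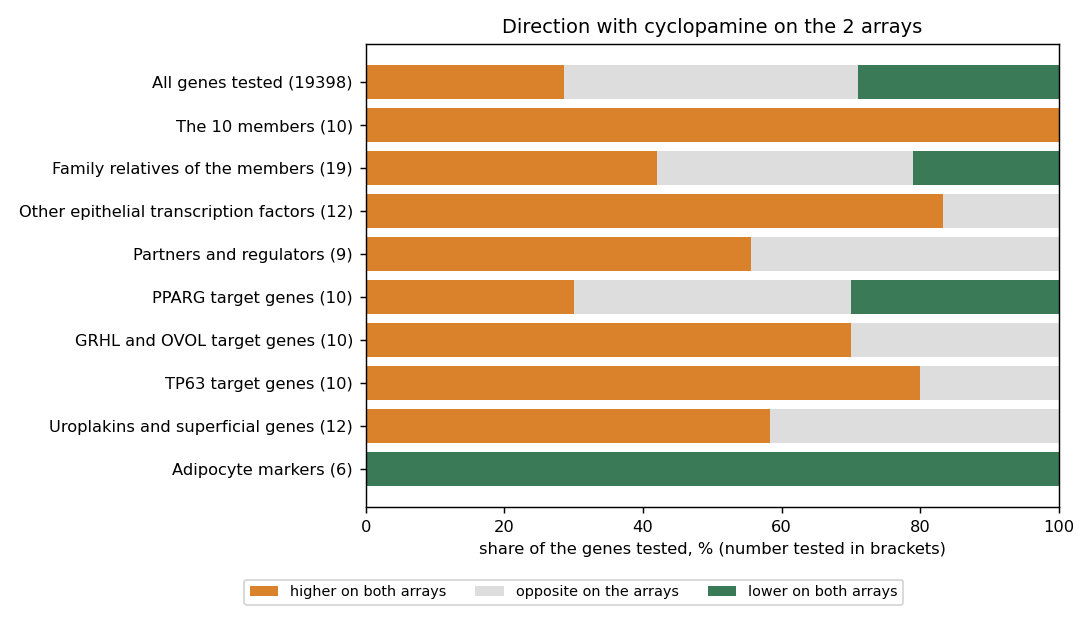
Bars give the share of the genes tested in each list that were higher on both arrays, of opposite sign, or lower on both, with the number tested in brackets. The 10 members lie at 100% higher on both, all genes tested at 28.6%, and the 6 adipocyte markers hold none that was higher on both.

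Whole ureters were profiled, so a higher reading can reflect more urothelial cells in the RNA or more RNA per cell, and these cannot be told apart here. Markers of all urothelial layers were well above background, and 6 of 7 were higher on both arrays, against 28.6% of all genes tested. Their summed intensity was 275933 in control and 316579 in cyclopamine on replicate 1, and 74959 and 87223 on replicate 2. Krt8, Krt18 and Krt19 gave most of that sum. The list median was 0.13 and 0.21. Cdh1, Epcam and Cldn4 are also among the GRHL and OVOL targets above, and the keratins among the uroplakin and superficial genes. Of the 5 basal markers 3 were higher on both arrays, and of the 6 superficial markers 2. Krt5, Krt14 and Itgb4 are also TP63 targets, and all superficial markers are in the uroplakin list. The marker and target lists are therefore not separate readings. Smooth muscle markers went the other way, with 4 of 5 lower on both arrays and a summed intensity of 318879 and 283442 on replicate 1 and of 85195 and 51221 on replicate 2. Of these Actg2, a smooth muscle actin, fell at -0.90 ± 0.27 (SD, n = 2; limma adjusted p 0.0251), a call lost with normexp at offset 50 (limma adjusted p 0.0885) and with the median of spots (0.0533). Aldh1a2, which marks lamina propria fibrocytes, passed the filter of the study as lower, with log2 ratios of -0.62 and -0.65. The 5 fibrocyte markers as a whole opposed each other on the arrays, with a median of 0.73 (replicate 1) and -0.45 (replicate 2). Col1a1, Col3a1, Dcn and Pdgfra were all higher on replicate 1, at 0.73, 0.87, 0.42 and 1.27. On replicate 2 they read -0.48, -0.45, -0.088 and 0.014, so that Pdgfra was nearly unchanged there. The summed intensity of the fibrocyte markers was 228550 and 370472 on replicate 1 and 112739 and 91688 on replicate 2. The part of these cell type markers in the ratios of the 10 factors was not tested.

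Pparg is also a factor of adipocytes, whose markers were lower. Of 7 adipocyte markers 6 were tested and all 6 were lower on both arrays, against 29% of all genes tested. The summed intensity of the 7 was 52059 in control and 41723 in cyclopamine on replicate 1, and 8603 and 7145 on replicate 2. Most of it came from Fabp4, at 44930 in control on replicate 1 and 8274 on replicate 2. On replicate 2 Plin1, Retn and Cidec were dim, at 17.9, 11.8 and 7.56 in control. Fabp4 and Cidec are also among the PPARG targets above. Cfd, the adipocyte protease adipsin, fell at -0.96 ± 0.073 (SD, n = 2; limma adjusted p 0.0122), a call lost with normexp at offset 50 (-0.90, limma adjusted p 0.0558). Adipoq, the hormone adiponectin, passed the filter of the study as lower, with log2 ratios of -0.86 and -0.65. Lep was not well above background. Pparg and the adipocyte markers had opposite signs on both arrays. Macrophages also express Pparg, and their 5 markers had a median of 0.21 (replicate 1) and -0.15 (replicate 2). Smooth muscle, whose markers were mostly lower, also expresses Klf5. Gata3 is also expressed by T cells and sympathetic neurons. Of 5 T cell markers 3 were tested, with a summed intensity of 3035 and 3196 on replicate 1 and of 642 and 575 on replicate 2. Of the 4 sympathetic neuron markers all were tested, with a summed intensity of 2731 and 2744 on replicate 1 and of 523 and 363 on replicate 2. Kidney epithelium also expresses Gata3, Grhl2, Ehf and Elf3. Of 6 kidney markers 3, Umod, Slc12a1 and Slc34a1, were not well above background. The other 3 had a median of 0.25 (replicate 1) and 0.28 (replicate 2), the direction of the members. Aqp3 (0.25 and 0.28) and Lrp2 (1.23 and 0.28) were higher on both arrays, whereas Aqp2 (-0.064 and 0.068) was opposite. The summed intensity of the kidney markers was 26866 and 31930 on replicate 1 and 5258 and 6400 on replicate 2. Nearly all of it came from Aqp3, at 26726 and 31710 on replicate 1 and 5203 and 6338 on replicate 2. Aqp2 and Lrp2 were dim, at 55.5 and 60.6 in control on replicate 1. Whole ureters do not resolve which cells gave the Aqp3 reading. The part of these markers in the ratios of the members was not tested.

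RefSeq promoter windows (build GRCm38.p6, 250 bases before to 50 after the start) were at hand for 5 of the 10 members (Elf3, Foxa1, Gata3, Grhl3 and Pparg), in 7 windows. The letters searched, on both strands, were GACCACCCA for GLI factors, AACCGGTT for grainyhead factors, TGTTTAC for forkhead factors, AGATAA for GATA factors and CCGGAAGT for ETS factors. The GLI letters were in none of the 7 windows and in 0.253% of 32851 windows of all genes, the grainyhead letters in none and 0.146%, the GATA letters in none and 11.2%, and the ETS letters in none and 3.89%. The forkhead letters were in 1 window, that of Foxa1 itself, and in 3.65% of all windows. The 250 bases before the start of Foxa1 (chr12:57546112-57546361, minus strand) are shown because the promoter of this forkhead gene holds the forkhead letters, in capitals as read on the opposite strand, 141 to 135 bases before the start.

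Foxa1: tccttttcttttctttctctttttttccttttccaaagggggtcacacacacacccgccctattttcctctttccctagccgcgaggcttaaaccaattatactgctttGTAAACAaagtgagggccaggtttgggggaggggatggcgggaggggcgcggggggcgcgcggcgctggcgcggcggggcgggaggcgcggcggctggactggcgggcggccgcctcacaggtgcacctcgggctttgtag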

How the data were processed

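Total RNA of 2 pools per condition was hybridised to 2 two-colour Agilent arrays. Groups and dyes came from the labels, 1 field of which names the WNT inhibitor IWP-2 where the others give cyclopamine. The deposited scanner files hold a processed intensity per spot and channel, and the authors' spot flags. Per the file headers (Feature Extraction 12.2.0.7, although the submitters' processing notes give 10.7.3.1), background had been subtracted and the dyes balanced within each array. The authors' deposited series table holds a score, a signed linear fold change rounded to a single decimal, used only as an alternative. Control spots and flagged outliers (2.89% and 3.15% of spots) were dropped, and none was saturated. Spots were averaged per probe on the log2 scale and ratios turned to cyclopamine over control.

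Tested were 25975 of 39429 probes, those that stood well above background (a share of 0.5 or more of the spots) on both arrays in 1 condition, control or cyclopamine. limma 3.58.1 in R 4.3.3 fitted the ratios with 1 residual degree of freedom, so the pooled prior carries most of the variance, and p-values were adjusted by Benjamini-Hochberg over all tested probes. Lengths and updated names came from the RefSeq table of GRCm38.p6 through accessions (28328 probes matched). The number of arrays limits the precision, and intensities were not on a common scale, with an upper quartile of the control channel of 3338 on replicate 1 and 628 on replicate 2. Both arrays shared a slide and a scan. Pearson's r between their ratios was 0.24 over the tested probes.

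All members and their probes are named. Of each list the genes past limma or the study filter are named, and otherwise the highest and the lowest. A gene of the hedgehog list is not reported here. The members and lists were chosen with earlier results of these data known. Alternatives covered background correction, centring, spot and dim-probe handling, prior, probe choice, filter limits, gene length and single arrays.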

Additional observations from a re-analysis of the deposited data

Results flagged for a closer look

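The values below had opposite signs in the female pools (replicate 1) and the male pools (replicate 2). With 1 array per sex none of these differences was tested, and sex and dye orientation cannot be told apart. No member probe was among them.

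Of single genes, the female minus male difference in log2 ratio was 1.505 for Zfpm2 (1.21 and -0.30), 1.24 for Tfap2b (0.44 and -0.80) and 0.40 for Zfpm1 (0.28 and -0.12). It was -0.72 for Krt14 (-0.52 and 0.19), -0.52 for Rab25 (-0.31 and 0.22) and -0.20 for Krt20 (-0.20 and 0.00088). Tfap2b was dim, with a control intensity of 21.2 on replicate 2.

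Of the list medians, the difference was 1.18 for lamina propria and other fibrocyte markers (0.73 and -0.45), 0.82 for endothelial markers (0.65 and -0.17) and 0.51 for sympathetic neuron markers (0.015 and -0.49). It was 0.36 for macrophage markers (0.21 and -0.15), 0.14 for PPARG targets (0.079 and -0.056), 0.099 for T cell markers (0.027 and -0.072) and -0.085 for superficial urothelial markers (-0.014 and 0.071).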

How the results depend on the processing

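Over 13 alternatives that keep both arrays, none of the 130 member values changed sign and none gained a call by limma. Of these alternatives 2, the series table and the 4 channels as separate samples, called 0 of 19398 genes by limma (1355 and 426 at an unadjusted p under 0.05), so their lack of member calls says nothing about the members. Many of the 130 values could not change sign. The dim-probe filters and the trended prior leave the ratios as they are, and keeping outlier spots moved no member ratio. The 7 genes with a single probe have the same ratio under each probe choice. For Trp63 the dimmest probe read 0.13, and the probe at -0.50 was not used alone. Mean log2 ratios ranged from 0.51 to 0.73 for Grhl2, 0.069 to 0.48 for Trp63 and 0.077 to 0.26 for Pparg. With the gene length trend removed, 1 member (Ehf) was opposite on the arrays. By the mean log2 ratio past 1.5-fold 1 member passed the filter of the study, and with a single array 0 to 3 did. The ratios as reported use the array as the block, and with the 4 channels as separate samples, without a replicate block, the median of the members was 0.30. Over single arrays the member median ranged from 0.24 to 0.35.

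List medians turned sign with the length trend removed for PPARG targets (-0.038), macrophage markers (-0.032) and superficial urothelial markers (0.12), the last also with normexp at offset 50 (0.025) and offset 10 (0.0054). Single genes turned sign with the length trend removed for Zfpm1 (-0.040) and Rab25 (0.054), and with the dimmest probe for Zfpm1 (-0.10). Single arrays turned the sign of PPARG targets (-0.056 to 0.079), superficial (-0.014 to 0.071), macrophage (-0.15 to 0.21), T cell (-0.072 to 0.027), sympathetic neuron (-0.49 to 0.015), fibrocyte (-0.45 to 0.73) and endothelial markers (-0.17 to 0.65). They did so for Tfap2b (-0.80 to 0.44), Zfpm1 (-0.12 to 0.28), Zfpm2 (-0.30 to 1.21), Rab25 (-0.31 to 0.22), Krt14 (-0.52 to 0.19) and Krt20 (-0.20 to 0.00088). The causes were not tested.

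The limma calls of the 5 hedgehog targets named, Cidec, Cfd and Actg2 were lost with the series table and with 4 separate channels, which called no gene, while the log2 ratios stayed close for most (Foxl1 -2.62 and -2.61, Gli1 -1.98 and -1.97, Ptch1 -1.34 and -1.31). Those of Hhip, Foxf1, Cfd and Actg2 were also lost with normexp at offset 50, and that of Actg2 with the median of spots. Adipoq gained a call with a trended prior and, like Aldh1a2, with the length trend removed. Ovol1, the member with the least signal (control intensity 22.7 on replicate 2), had a mean log2 ratio of 0.28 with normexp at offset 50.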
